A study of Mus musculus with 4 samples.

Results

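The nuclear genes of oxidative phosphorylation were examined in the RNA of mouse sympathetic ganglia. They were the protein-coding genes whose symbols begin with Nduf followed by a, b, c, s or v and a number, Uqcr, Cox4 to Cox8 or Atp5, together with Sdha to Sdhd and Cyc1. Cox8b, Cox7a1 and pseudogenes were left out. Of 86 genes that met this rule, 81 were listed in at least 1 of the 4 libraries, out of 17667 genes listed in any library, and 80 were listed in every library, out of 15275. Complex I accounted for 37 of the 81 genes, complex II for 4, complex III for 9, complex IV for 14 and complex V for 17. Cox7b2, Cox8c, Ndufb1, Ndufb4b and Ndufb4c were not listed in any of the 4 libraries.

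The study asked how neurotrophin-3 (NT-3), made by fat, and its receptor TRKC act on the sympathetic neurons that innervate brown fat. Thoracic T1-T4 ganglia were taken from C57BL/6 mice aged 12 weeks after 1 day at 5 °C, and the ganglia of 6 mice per group were pooled into 1 library. The 4 libraries were WT 1 and WT 2 from wild-type mice, 1 from mice labelled TRKC+/-, which carry 1 disrupted allele of the receptor gene, and 1 from AdNTF3-Tg mice, in which the adiponectin promoter drives NT-3 in fat cells. Each mutant was thus a single pool. The study states that each mutant line had its own WT controls, but the labels do not tie a WT pool to a mutant. Each mutant was therefore compared with both WT libraries, which the 2 comparisons share. The difference between WT 1 and WT 2 may include a difference between the controls of the 2 lines. The libraries held 8665955 to 8894985 reads on genes. All 12 sympathetic neuron markers were listed in every library, with a summed level of 9505 to 10155 FPKM (fragments per kilobase of transcript, scaled to the size of the library). Ntrk3, the gene of TRKC, stood at 2.45 FPKM in WT 1, 2.52 in WT 2 and 2.72 in the library labelled TRKC+/-, on 78, 83 and 91 reads. Its gene-level value was thus not lower there. In the study, RT-PCR on other ganglia found Trkc RNA reduced in TRKC+/- mice. A gene-level value does not separate transcripts of the intact and the disrupted allele.

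Oxidative phosphorylation takes place in the inner mitochondrial membrane. Complexes I and II pass electrons to ubiquinone, complex III passes them to cytochrome c, and complex IV passes them to oxygen. Complexes I, III and IV pump protons as they do so, and complex V, the ATP synthase, uses the returning protons to make ATP. Neurons depend heavily on this ATP for ion pumping and for transport along axons. Most subunits are encoded in the nucleus, and a small core is encoded by mitochondrial DNA; none of the 13 mitochondrially encoded subunits was listed, so they are not analysed here.

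The genes were expressed at high and similar levels in all 4 libraries. Of the 81 genes, 77 averaged at least 10 FPKM and 75 at least 50 FPKM. Their median over the libraries was 140 FPKM, against 7.89 FPKM for all 15275 genes. Atp5b, the catalytic beta subunit of the ATP synthase, was the most abundant, at 798 FPKM in WT 1, 793 in WT 2, 769 in the library labelled TRKC+/- and 761 in AdNTF3-Tg. Cox6a1, a complex IV subunit, was the highest of its complex, at 580, 538, 620 and 490 FPKM in the same order. Ndufa4, whose symbol places it in complex I although its protein is now assigned to complex IV, was the highest of the Nduf genes, at 424, 409, 347 and 355 FPKM. Uqcrh, the hinge subunit of complex III, stood at 281, 267, 230 and 220 FPKM, and Sdhb, the iron-sulphur subunit of complex II, at 191, 172, 173 and 169 FPKM. Both mutant libraries lay below both WT libraries for Atp5b, Ndufa4 and Uqcrh, whereas Cox6a1 was highest in the library labelled TRKC+/-.

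**Figure D1:**
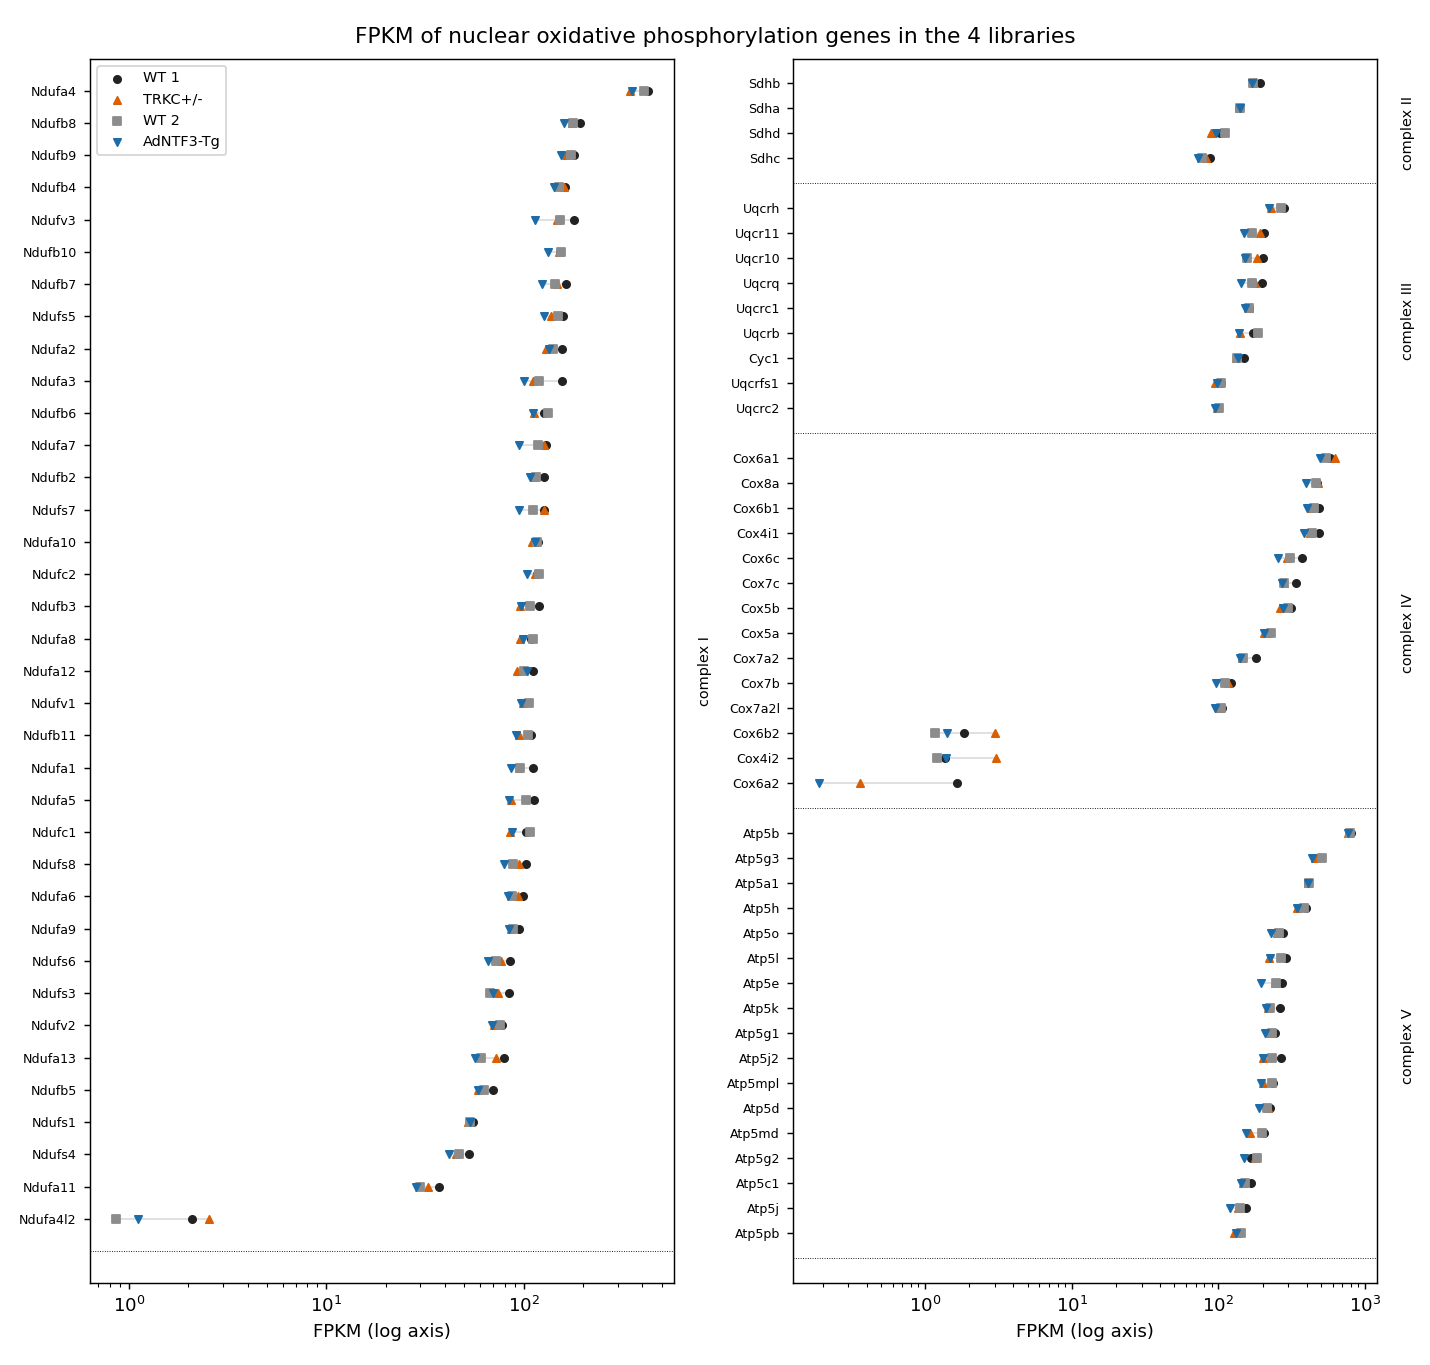
FPKM on a log axis for 80 of the 81 genes, 1 marker per library, grouped by complex and ordered by mean level. Most genes lie between 50 and 800 FPKM with their 4 markers close together, while Ndufa4l2, Cox4i2, Cox6b2 and Cox6a2 lie far to the left.

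Most of the genes were lower in the AdNTF3-Tg library than in either WT library, by a small amount. In AdNTF3-Tg, 72 of 80 genes lay below both WT libraries, while 34% of all genes did. Only 2 of the 80, Sdha and Cox4i2, lay above both, against 33.7% of all genes. The median log2 difference from the mean of the WT libraries was -0.20 over the 80 genes and 0.00 over all genes, on the log2(FPKM + 0.1) scale. It was -0.25 against WT 1 alone and -0.15 against WT 2 alone. No gene was lower by at least 0.5 on this scale against each WT library (3.58% of all genes were), and none was higher by as much (2.12% of all genes were). AdNTF3-Tg was the lowest of the 4 libraries for 58 of 80 genes, against 27.3% of all genes. Abundant genes as a class tended the same way, since 51.8% of the 1714 genes of at least 50 FPKM lay below both WT libraries, beside 70 of the 75 oxidative phosphorylation genes in that range.

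Most of the genes were also lower in the library labelled TRKC+/- than in either WT library, by a smaller amount against the same WT library. In it, 55 of 80 genes lay below both WT libraries, against 30.8% of all genes, and 5 lay above both, against 31.9%. The 5 were Cox4i2, Cox6b2, Ndufa4l2, Cox6a1 and Cox8a. The median log2 difference was -0.10, and it was -0.15 against WT 1 alone but -0.04 against WT 2 alone. The -0.15 against WT 1 equals, as rounded, the median of AdNTF3-Tg against WT 2, so the order of the mutants depends on the WT library used. Of the 80 genes, 2 were higher by at least 0.5 against each WT library (1.78% of all genes were) and 0 were lower by as much (2.49% of all genes were).

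The WT libraries differed from each other too, and by an amount between those medians. WT 1 was above WT 2 for 63 of 80 genes, against 51.2% of all genes, with a median log2 difference of 0.12. WT 1 was the highest of the 4 libraries for 58 of 80 genes, against 25.4% of all genes. It exceeded WT 2 by at least 0.5 for 2 genes (7.71% of all genes), Ndufa4l2 and Cox6b2, and was lower by as much for 0 (5.67% of all genes). Among genes of at least 10 FPKM, the largest differences between the WT libraries were those of Ndufa13 (79.9 FPKM in WT 1 and 60.5 in WT 2), Ndufa3 (157 and 120) and Uqcr10 (201 and 157). For Ndufa13 and Uqcr10, subunits of complexes I and III, the library labelled TRKC+/- lay between the WT libraries, at 72.4 and 182 FPKM.

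By share of all reads, the 81 genes took 1.19% in WT 1 (95% Wilson interval 1.186 to 1.201), 1.11% in WT 2 (1.106 to 1.12), 1.09% in the library labelled TRKC+/- (1.079 to 1.093) and 1.02% in AdNTF3-Tg (1.014 to 1.027). The intervals cover counting error only. None of the 4 intervals overlapped another, including those of the WT libraries, so the pools labelled WT differed by more than counting error. Gene by gene, the 95% counting interval of the log2 ratio to both WT libraries lay wholly below 0 for 68 of 80 genes in AdNTF3-Tg, against 12.7% of all genes, and for 39 in the library labelled TRKC+/-, against 7.95%. The interval of WT 2 against WT 1 lay wholly below 0 for 44 of the 80, against 11.4% of all genes. Such intervals narrow as reads increase, so these shares of all genes are not shares of genes as abundant as the set. In pooled whole ganglia, fewer cells rich in these transcripts and less of the RNA per cell cannot be told apart. The sum of 4 macrophage markers was 154 and 147 FPKM in WT 1 and WT 2, 116 in TRKC+/- and 109 in AdNTF3-Tg, and of the 4 only Lyz2 lay below both WT libraries in both mutants (125, 122, 87.5 and 83.7 FPKM). The part of macrophages in the result was not tested.

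The test across all genes made no call among these genes. With edgeR's quasi-likelihood test, in which the spread comes from the WT pair alone, 0 of 80 genes passed an adjusted p of 0.05 in AdNTF3-Tg, where 0% of 14156 genes passed, and 0 of 80 in the library labelled TRKC+/-, where 0.00706% passed. At an unadjusted p under 0.05, edgeR gave 27 of the 80 genes in AdNTF3-Tg, against 5.88% of all genes tested, and 8 in the library labelled TRKC+/-, against 1.93%. With no filter on low counts, edgeR gave 10 and 3 of 81 at that level, against 3.4% and 1.31% of all genes. DESeq2 gave 2 and 0 of 81 at that level, against 0.363% and 0.119% of all genes, and also called none of the set after adjustment. More reads let a smaller difference reach such a p, and most of the genes tested are less abundant than the set. The smallest p that edgeR gave was that of Atp5e in AdNTF3-Tg (log2 fold change -0.45 with a standard error of 0.12, adjusted p = 0.817).

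The difference moved with transcript length, and these are short transcripts. Their median length was 670 bases, against 2802 bases for all genes. Among genes of at least 10 FPKM and under 500 bases, the median log2 difference in AdNTF3-Tg was -0.26 over 14 oxidative phosphorylation genes and -0.28 over 59 other genes. From 500 to under 1000 bases, it was -0.22 over 40 and -0.17 over 570 other genes. From 1000 to under 2000 bases, it was -0.12 over 19 and -0.08 over 1753 other genes. From 2000 to under 4000 bases, it was -0.02 over 4 and 0.01 over 2787 other genes, and 1552 other genes of 4000 bases or more had a median of 0.08. Short genes outside the set were thus lower in AdNTF3-Tg too, and the medians of the oxidative phosphorylation genes, as rounded here, differed from those of other genes of their length by 0.05 or less in each of the 4 classes.

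The library labelled TRKC+/- showed the same slope, less steep. Its medians in the first 4 classes were -0.13, -0.13, -0.07 and -0.03 for the oxidative phosphorylation genes and -0.11, -0.06, -0.01 and 0.01 for the others. WT 1 minus WT 2 gave 0.14, 0.12, 0.04 and 0.02 against 0.11, 0.09, 0.02 and -0.01, so a slope of this kind also separated the 2 pools labelled WT. The median transcript length over reads was 2959 bases in WT 1, 3008 in WT 2, 3000 in the library labelled TRKC+/- and 3132 in AdNTF3-Tg.

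**Figure D2:**
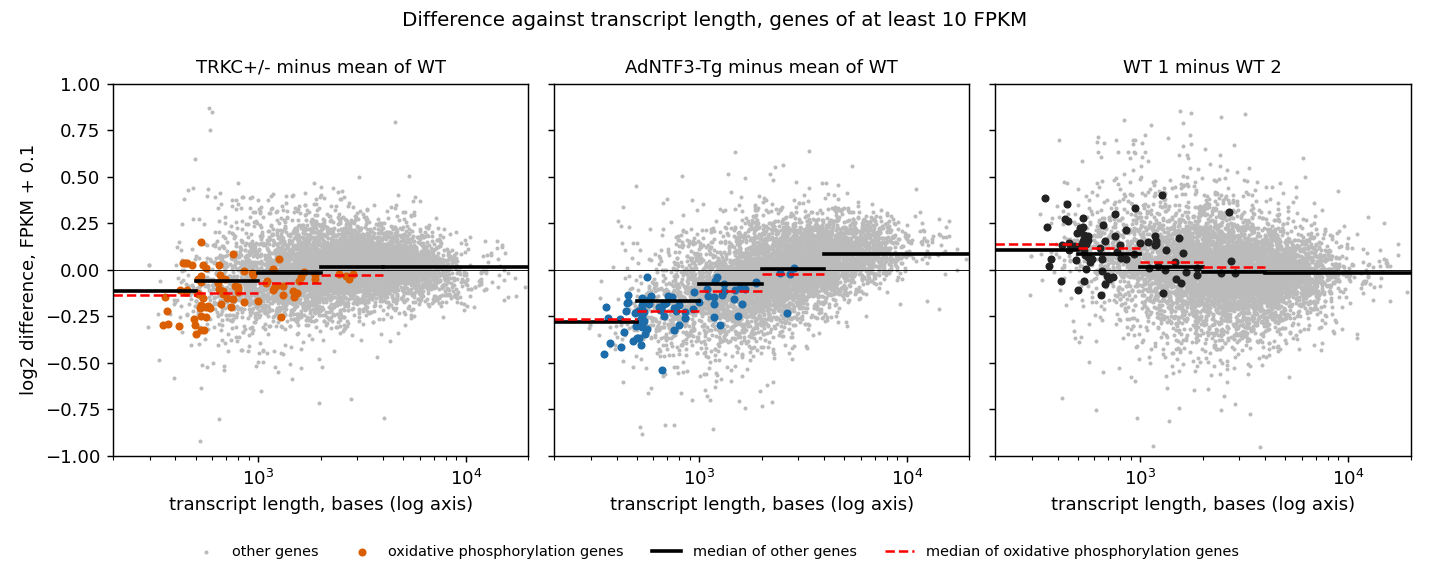
Log2 difference in FPKM + 0.1 against transcript length (log axis) for genes of at least 10 FPKM: oxidative phosphorylation genes in colour, other genes in grey, and the class medians as solid (other genes) and dashed (oxidative phosphorylation genes) lines; up to 15 genes per panel fall outside the axes. In the AdNTF3-Tg panel the solid line climbs from -0.28 to 0.08 with length, and the dashed line follows it closely, from -0.26 to -0.02.

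With the median of other genes of the same length class subtracted, an alternative chosen after seeing the data, 41 of 80 genes lay below both WT libraries in AdNTF3-Tg, all of them among the 72 counted before, and 10 lay above, against 33.6% and 32.9% of all genes. The median was then -0.04 in place of -0.20. In the library labelled TRKC+/-, 45 lay below, all of them among the 55, and 14 above, against 32.8% and 31.3% of all genes, and the median was -0.05 in place of -0.10. The closing section gives how named single genes changed when length was removed, and the part of length in their differences was not tested.

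Complex I, the NADH dehydrogenase, held 37 of the genes. Of these, 33 lay below both WT libraries in AdNTF3-Tg (34% of all genes did) and 25 in the library labelled TRKC+/- (30.8% did). The medians of complex I were -0.22 and -0.09. Ndufv3, a small accessory subunit of the NADH-binding module, had the largest difference of any gene in AdNTF3-Tg, at 181 FPKM in WT 1, 153 in WT 2, 147 in the library labelled TRKC+/- and 114 in AdNTF3-Tg. The log2 difference was -0.54. Its reads numbered 918, 789, 779 and 640, and edgeR on the reads gave -0.42 with a standard error of 0.13 (adjusted p = 0.817). The transcript length listed for Ndufv3 rose from 636 bases in WT 1 to 704 in AdNTF3-Tg, with 650 and 657 in WT 2 and the library labelled TRKC+/-, so the estimated isoform mixture differed and added to the FPKM difference. Ndufa3, an accessory subunit with the shortest transcript of the set at 349 bases, stood at 157, 120, 112 and 100 FPKM, with a log2 difference of -0.45 in AdNTF3-Tg. The WT libraries were 0.38 apart for that gene. Ndufa5 stood at 113, 102, 85.8 and 84.5 FPKM, so both mutants lay below both WT libraries.

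Ndufv1 and Ndufs1, core subunits of complex I, differed less from the WT mean, by -0.10 and -0.02 in AdNTF3-Tg. Ndufv1, which binds NADH and FMN, stood at 101, 106, 99.2 and 96.7 FPKM in WT 1, WT 2, the library labelled TRKC+/- and AdNTF3-Tg. Ndufs1, which carries iron-sulphur clusters, stood at 55.2, 53.4, 52.4 and 53.4 FPKM. Ndufs1 in AdNTF3-Tg lay between the WT libraries, and its transcript was 2728 bases long.

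Complex II, succinate dehydrogenase, had the median closest to 0 of the 5 complexes in AdNTF3-Tg. Sdha, the flavoprotein that oxidises succinate, was nearly flat at 139, 140, 137 and 141 FPKM, in the order WT 1, WT 2, TRKC+/- and AdNTF3-Tg. It was the only abundant gene of the set above both WT libraries in AdNTF3-Tg, by 0.01 on the log2 scale, and its transcript of 2859 bases was the longest of the set. Sdhc, a membrane anchor, was the lowest of the complex, at 87.9, 77.4, 82.6 and 72.7 FPKM. The median of the 4 genes was -0.12 in AdNTF3-Tg and -0.05 in the library labelled TRKC+/-.

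Complex III, the cytochrome bc1 complex, had 8 of 9 genes below both WT libraries in AdNTF3-Tg (34% of all genes were). It had 6 in the library labelled TRKC+/- (30.8% were). The medians of complex III were -0.22 and -0.05. Uqcrb, a small ubiquinone-binding subunit, stood at 172, 186, 141 and 138 FPKM, and the mutant libraries did not overlap the WT libraries. Its log2 difference was -0.35 in the library labelled TRKC+/-, the largest decrease there, and -0.37 in AdNTF3-Tg, and edgeR gave standard errors of 0.11 with adjusted p values of 0.999 and 0.817. The catalytic subunits were closer together. Uqcrfs1, the Rieske iron-sulphur protein, stood at 104, 104, 94.5 and 98.3 FPKM, and Cyc1, cytochrome c1, at 148, 135, 132 and 136 FPKM. Uqcrc1 and Uqcrc2, the core proteins, differed from the WT mean by -0.10 and -0.07 in AdNTF3-Tg and by -0.01 and -0.03 in the library labelled TRKC+/-.

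Complex IV, cytochrome c oxidase, had 11 of 13 genes listed in every library below both WT libraries in AdNTF3-Tg (34% of all genes were). It had 7 in the library labelled TRKC+/- (30.8% were). The medians of complex IV were -0.19 and -0.12. The complex includes the subunits with tissue-specific isoforms, and the forms found in most tissues were the abundant ones here. Cox4i1 stood at 483, 434, 419 and 386 FPKM, whereas Cox4i2, the isoform known from lung and from low oxygen, stood at 1.36, 1.20, 3.03 and 1.38 FPKM. Cox4i2 was the gene with the largest log2 difference in the library labelled TRKC+/-, at 1.18, but this rested on 18 reads there against 8 and 7 in the WT libraries. The edgeR estimate was 1.23 with a standard error of 0.60 (adjusted p = 0.999). Cox6b1 stood at 487, 446, 428 and 400 FPKM, and Cox6b2, the testis isoform, at 1.84, 1.17, 2.98 and 1.41 FPKM, on 5 to 13 reads. These were the 2 genes past 0.5 against both WT libraries.

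The muscle isoform of subunit 6a was at the limit of detection. Cox6a2, the heart and skeletal muscle isoform, stood at 1.65 FPKM in WT 1, 0.36 in the library labelled TRKC+/- and 0.19 in AdNTF3-Tg, on 9, 2 and 1 reads, and was not listed in WT 2. The summed level of 14 skeletal muscle markers was 113.3 FPKM in WT 1, 52.5 in the library labelled TRKC+/-, 38.8 in AdNTF3-Tg and 4.7 in WT 2, where 3 of the 14 were not listed, so Cox6a2 followed the same order. The part of muscle RNA in the other genes was not tested. Cox6a1, in contrast, was abundant and had a log2 difference from the WT mean of 0.15 in TRKC+/- and of -0.19 in AdNTF3-Tg. Cox8a, the common form of subunit 8, stood at 467, 465, 475 and 398 FPKM. Cox5a stood at 222, 230, 204 and 205 FPKM, Cox7b at 121, 110, 116 and 97.0, Cox7a2 at 180, 146, 146 and 141, and Cox7a2l, which takes part in joining complexes III and IV, at 105, 105, 101 and 95.2 FPKM. Ndufa4l2, the low-oxygen paralogue of Ndufa4, stood at 2.09, 0.86, 2.55 and 1.11 FPKM, and the WT libraries were 1.19 apart for it.

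Complex V, the ATP synthase, had all 17 genes below both WT libraries in AdNTF3-Tg and 15 in the library labelled TRKC+/-. Among all genes, 34% and 30.8% were, and among genes of at least 50 FPKM, as all of these are, 51.8% and 36.3%. The medians of complex V were -0.21 and -0.12. The differences ran from -0.41 to -0.02 in AdNTF3-Tg. Atp5e, the small epsilon subunit of the central stalk, stood at 273, 249, 242 and 196 FPKM, on 872, 772, 772 and 603 reads, so AdNTF3-Tg stood apart from the other 3 libraries. Atp5l, subunit g of the membrane part, stood at 289, 266, 222 and 225 FPKM, with both mutants below both WT libraries (-0.32 in the library labelled TRKC+/- and -0.30 in AdNTF3-Tg). Atp5a1, the alpha subunit that forms the catalytic head with Atp5b, stood at 411, 416, 407 and 408 FPKM and differed by -0.02 in each mutant. Atp5pb, in the peripheral stalk, was the lowest of the complex, at 139, 143, 127 and 131 FPKM.

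Atp5g1, Atp5g2 and Atp5g3 encode the same mature c subunit of the rotating ring, with different import sequences. Atp5g3 was the main source, at 480, 506, 455 and 434 FPKM, followed by Atp5g1 at 243, 233, 223 and 209 and Atp5g2 at 166, 183, 177 and 150. The order Atp5g3, Atp5g1, Atp5g2 was the same in every library. All 3 were below both WT libraries in AdNTF3-Tg. No gene of the set had a fractional read count, with a tolerance of 0.01 reads, against 8.3% of other genes, so no sharing of reads with near-identical copies was visible.

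**Figure D3:**
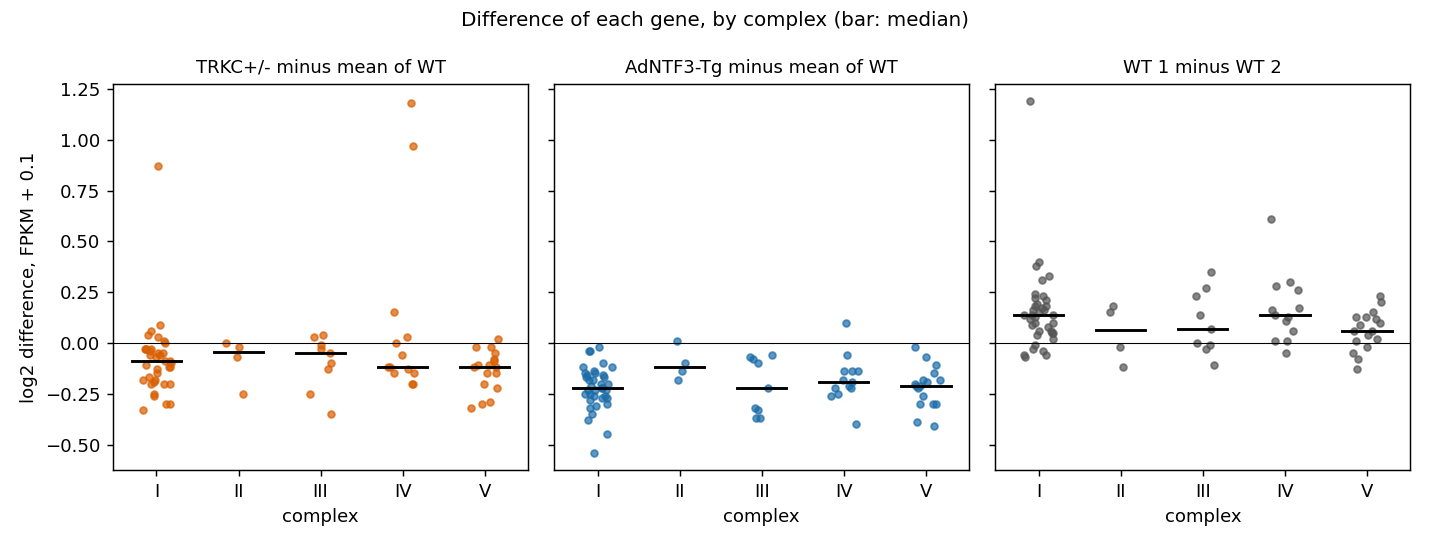
Log2 difference in FPKM + 0.1 of each of the 80 genes, by complex, for each mutant minus the mean of the WT libraries and for WT 1 minus WT 2; points are genes and bars are medians. The AdNTF3-Tg medians lie between -0.22 and -0.12, the TRKC+/- medians between -0.12 and -0.05, and the points at about 1 are Cox4i2, Cox6b2 and Ndufa4l2.

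Taking a list of 11 large or well-studied subunits of the 5 complexes (Ndufv1, Ndufs1, Sdha, Sdhb, Uqcrc1, Uqcrfs1, Cyc1, Cox4i1, Cox5a, Atp5a1 and Atp5b), 8 lay below both WT libraries in AdNTF3-Tg, with differences from -0.25 to 0.01 and a median of -0.08. In the library labelled TRKC+/-, where 30.8% of all genes lay below both (34% in AdNTF3-Tg), 10 did, from -0.15 to -0.01 with a median of -0.06. Apart from the rare isoforms, the 3 genes farthest below the WT mean were Ndufv3, Ndufa3 and Atp5e in AdNTF3-Tg and Uqcrb, Ndufa5 and Atp5l in the library labelled TRKC+/-, none of them on this list. Of the 11 genes, 9 had transcripts of at least 1000 bases, with a median of 1572 against 670 for the whole set, and Cox4i1, the shortest at 679 bases, was the one at -0.25.

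Genes that work beside the complexes were read from lists, whose counts stand beside the shares of all genes, 34% below and 33.7% above both WT libraries in AdNTF3-Tg and 30.8% and 31.9% in TRKC+/-. Of 17 other electron carriers and subunits outside the rule, 8 lay below and 1 above both WT libraries in AdNTF3-Tg (median 0.01), and 7 below and 6 above in the library labelled TRKC+/- (median -0.01). Cycs, which encodes cytochrome c, was among them at 60.5, 70.7, 58.6 and 65.8 FPKM in WT 1, WT 2, TRKC+/- and AdNTF3-Tg. Of 17 tricarboxylic acid cycle genes, which supply electrons to the chain, 8 lay below in each mutant, 3 lay above in AdNTF3-Tg and 2 in the library labelled TRKC+/-, with medians of -0.01 and -0.06. Of 7 genes for ATP export and the outer membrane channels, 6 and 4 lay below, with medians of -0.08 and -0.05. The carrier, cycle and export genes had median lengths of 1746, 2279 and 1512 bases, longer than the 670 bases of the subunits.

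Of 47 assembly factors listed in every library, 22 lay below and 13 above both WT libraries in AdNTF3-Tg, and 20 below and 7 above in the library labelled TRKC+/-, with a median of -0.07 in each, beside the same shares of all genes. In the latter library, 1 factor was lower and 2 were higher by at least 0.5 against each WT library, where 2.49% and 1.78% of all genes were. Ndufaf1, needed to assemble complex I, stood at 9.77 FPKM against 14.4 and 15.0 in WT 1 and WT 2. Ndufaf8 stood at 29.5 FPKM against 20.3 and 18.9, and Lyrm7, which serves the insertion of the Rieske protein, at 4.50 against 3.08 and 2.35. Of 19 factors for transcription and mitochondrial DNA, 8 lay below and 7 above in AdNTF3-Tg, and 6 below and 4 above in the library labelled TRKC+/-, with medians of 0.00 and 0.02. Nrf1, a transcription factor of many subunit genes, stood at 5.36, 5.68, 4.83 and 5.50 FPKM, and Ppargc1a, the coactivator of mitochondrial biogenesis, at 1.20, 1.07, 1.03 and 1.29. Tfb1m, a methyltransferase of mitochondrial ribosomal RNA, was the 1 gene of the 19 higher by at least 0.5 against each WT library in AdNTF3-Tg, where 2.12% of all genes were, at 7.12 FPKM (81 reads) against 3.78 and 4.46 (43 and 51 reads).

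Cox8b and Cox7a1, the muscle and brown fat isoforms that the rule leaves out, stood well below the median of 140 FPKM of the set. In the library labelled TRKC+/-, both were lower by at least 0.5 against each WT library, where 2.49% of all genes were. Their log2 differences from the WT mean there were -1.49 and -0.58. Cox8b stood at 12.8 and 12.9 FPKM in the WT libraries, 4.53 in the library labelled TRKC+/- and 13.0 in AdNTF3-Tg, on 37, 36, 13 and 36 reads. Cox7a1 stood at 16.9, 15.7, 10.8 and 12.3 FPKM in the order WT 1, WT 2, TRKC+/- and AdNTF3-Tg, on 50, 45, 32 and 35 reads. All 10 brown adipocyte markers, a list that holds both genes, were detected in each library, with sums of 400 and 366 FPKM in the WT libraries, 217 in the library labelled TRKC+/- and 298 in AdNTF3-Tg. Fabp4 made up most of each sum, at 244, 225, 134 and 173 FPKM in the same order. In AdNTF3-Tg, Cox8b and Plin1 lay slightly above both WT libraries and the other markers below both. In the library labelled TRKC+/-, Adipoq and Adrb3 lay between the WT libraries and the other markers below both. Ucp1, the uncoupling protein of brown fat, was 47.3, 48.1, 7.80 and 37.8 FPKM. The part of brown fat RNA in the differences of the 81 genes was not tested, and the sum of the 81 genes was 15255, 14302, 13730 and 12784 FPKM in the same order.

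Promoters were examined as a description of sequence only. Of the 81 genes, 65 had an entry among the RefSeq promoter sequences (GRCm38.p6), from 250 bases before to 50 after the gene start, and 4 words were searched on both strands. GCATGCGC, the core of the site of the transcription factor NRF1, occurred in 10 of 65 (15.4%), against 3.05% of 27025 genes and 4.90% of 13809 genes listed here. AAGATGGC, the YY1 word, occurred in 10 of 65 (15.4%), against 3.19% and 4.24%. CCGGAAGT, of the ETS family that includes GABPA, occurred in 5 (7.69%), against 4.31% and 7.13%, and TCAAGGTCA, of the ERR receptors, in 2 (3.08%), against 0.466% and 0.34%. Matches of different words overlapped in no gene of the set, but the NRF1 word can overlap its own reverse complement, and such pairs were counted once per gene. A match is a stretch of letters and not a bound site.

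The windows of 30 bases around the NRF1 word are shown for the 3 most abundant genes that hold it, read 5′ to 3′ along the gene in GRCm38.p6, with the word in capitals.
Cox6a1, chr5:115349100-115349129, minus strand: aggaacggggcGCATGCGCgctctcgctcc
Atp5l, chr9:44920963-44920992, minus strand: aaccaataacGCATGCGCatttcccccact
Atp5k, chr5:108434429-108434458, minus strand: ttcactgcggcGCATGCGCctttctggctt

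The same is shown for the YY1 word in the 3 most abundant genes with a match in the direction of the gene, where the word falls after the annotated start in Atp5j2 and Ndufb8 and before it in Atp5j.
Atp5j2, chr5:145191500-145191529, minus strand: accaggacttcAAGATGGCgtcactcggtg
Ndufb8, chr19:44555393-44555422, minus strand: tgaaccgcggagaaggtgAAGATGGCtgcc
Atp5j, chr16:84835046-84835075, minus strand: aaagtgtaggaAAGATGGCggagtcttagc

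Medians with and without each word were set side by side. In AdNTF3-Tg, the median log2 difference was -0.20 over the 10 genes with the NRF1 word and -0.21 over the 55 without it, and -0.26 over the 10 with the YY1 word and -0.20 over the 55 without. In the library labelled TRKC+/-, the medians were -0.02 with and -0.12 without the NRF1 word, and -0.12 with and -0.11 without the YY1 word. With the ETS word, in 5 genes, they were -0.22 in AdNTF3-Tg and -0.03 in TRKC+/-, and without it -0.21 and -0.11. Of the genes with the ERR word, Atp5g3 had log2 differences of -0.18 in AdNTF3-Tg and -0.12 in TRKC+/-, and Sdhd of -0.14 and -0.25. No test was made between these few genes.

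The choice of WT library mattered for the size of single differences. Against WT 1 alone, 4 genes (Cox6c, Ndufa3, Ndufa4l2 and Ndufv3) were lower by at least 0.5 in AdNTF3-Tg, while 8.24% of all genes were. Against WT 2 alone there were 0 such genes in the set, while 7.1% of all genes were lower by as much.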

How the data were processed

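Poly(A) RNA of pooled ganglia was sequenced in 4 libraries, and the authors deposited per library a gene table of expected counts, FPKM and transcript length. Per the labels the expected counts and FPKM values came from RSEM with mm10, whereas the study's methods name HISAT2 and mm9, so the build was not settled and file coordinates were not used. Genes were matched by Entrez identifier (17619 of 17667), and the members and lists were chosen with earlier results of these data known. Log2 differences used FPKM + 0.1, a cutoff of 0.5, and genes listed in all 4 libraries. Counting intervals were 95% Clopper-Pearson or Wilson intervals. Expected counts were rounded and tested over all genes that passed filterByExpr in edgeR 4.0.16 (quasi-likelihood, TMM, Benjamini-Hochberg), checked on simulated data, and DESeq2 1.42.0 was an alternative. The spread came from the WT pair, 1 residual degree of freedom, and the labels do not say whether the pools were of separate experiments. If the WT pools were controls of separate lines, that spread includes any difference between those controls. Genes named were the highest and lowest of each complex, those past the cutoff, the 3 largest differences per library and direction and between the WT libraries, a list of main subunits, isoform sets, genes not listed throughout, and list genes past the cutoff. Other settings (pseudocount, level filter, scaling, length trend, each WT library left out) stand in the closing section. For 1 gene that this rule names, the values are not reported here, though it is counted among the 81 genes.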

Additional observations from a re-analysis of the deposited data

How the results depend on the processing

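The counts of genes below both WT libraries and their medians depended on the treatment of length in both mutants, as did the difference between the WT libraries. In AdNTF3-Tg they moved as follows. With a quadratic trend on effective length and level removed, 46 of 80 genes lay outside both WT libraries and 34 below, with a median of -0.03, while 33.1% of all genes lay below and 33.5% above. With a trend on length alone removed (chosen after seeing the data), 49 lay outside and 33 below, with a median of -0.02, while 34.3% of all genes lay below and 32.3% above, and the median of WT 1 minus WT 2 fell to 0.01. With the class median subtracted (also chosen after seeing the data), 41 lay below, against 33.6% of all genes, and the median was -0.04. In the library labelled TRKC+/-, the number below was 40, 44 and 45 under these settings in turn, in place of 55, against 32.1%, 33.1% and 32.8% of all genes, and the median -0.03, -0.04 and -0.05, in place of -0.10. The other pseudocounts, level filters and scalings, and missing genes taken as 0, left these counts within 1.5 times of the values reported. The number above both WT libraries moved more. Under the length settings in turn it was 12, 16 and 10 in AdNTF3-Tg (33.5%, 32.3% and 32.9% of all genes) and 14, 17 and 14 in the library labelled TRKC+/- (31.8%, 31.1% and 31.3%). In AdNTF3-Tg it was 0 with TMM (34.4%), and in the library labelled TRKC+/- it was 2 at 50 FPKM or more (27.7%). The number past the cutoff in the library labelled TRKC+/- was 1 with a pseudocount of 1 (0.687% of all genes in either direction), 0 with genes of at least 50 FPKM (0.0583%), 8 at a cutoff of 0.25 (12.2%) and 1 at a cutoff of 1 (0.871%), and in AdNTF3-Tg it was 11 at a cutoff of 0.25 (16.3%). With 1 WT library left out, the number below was 72 to 78 and the median -0.25 to -0.15 in AdNTF3-Tg (48.5% to 50.4% of all genes lay below), and 56 to 74 and -0.15 to -0.04 in the library labelled TRKC+/- (48.7% to 49.2%). The number past the cutoff was then 0 to 4 (13.3% to 13.9% of all genes) and 2 to 3 (10.7% to 12.7%), and the 4 were against WT 1. The count outside both WT libraries has no such value. Of 74 log2 differences of named genes, 10 changed sign with the effective length and level trend removed, 11 with the length trend, 9 with the class median, 4 without WT replicate 1 and 2 without WT replicate 2, and 0 under the other settings. Under the first 3 of these settings, 44, 44 and 39 of the 74 moved by at least the standard deviation of the WT pair for that gene. edgeR with median-of-ratios factors, edgeR with no filter and DESeq2 each called 0 genes of the set. Leaving out a WT library in edgeR left no residual degrees of freedom, so no test was made. The cause of the length trend was not tested. No paired analysis was possible because each mutant has a single library. The 3 rare isoforms rested on 5 to 21 reads per library, and the 95% counting interval of their log2 ratio in the library labelled TRKC+/- was 0.17 to 2.33 for Cox4i2, -0.25 to 2.20 for Cox6b2 and -0.13 to 1.69 for Ndufa4l2.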
